A study of Mus musculus with 4 samples.

Results

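Complement is a cascade of blood proteins that tags foreign or damaged surfaces for removal, and the genes described here encode its early components and some of its brakes: C1ra, C1s, C2, C3, C4b, Cfb, Serping1 and Cd55. They were taken by gene name from the annotation of the array, with C1s carried by the current mouse symbol C1s1. The rule used names and no size of change, but the genes were chosen with earlier results of these data known. These 8 genes, with 11 probes, were among 16657 genes with a probe well above background on at least 1 array, and all 11 probes were well above background on every array.

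Total RNA came from cardiac mesenchymal progenitors (CMPs), Sca-1+ cells isolated from the hearts of adult wild-type C57BL/6 mice and grown in serum with basic fibroblast growth factor. The untreated cells, labelled day 0, were the CMP control, and the other samples were CMPs transduced with Sendai virus carrying Oct3/4, Sox2, Klf4 and c-Myc (OSKM-CMPs), kept in reprogramming medium without leukemia inhibitory factor and harvested at day 4, day 6 or day 8. The study asked how these factors act on CMPs, which it followed towards adipocytes. Each condition was 1 single-colour Agilent array, so no difference has a replicate check and no test between conditions was possible. No sample of untransduced cells carried along in the reprogramming medium was analysed here, so virus, factors, medium and time in culture cannot be told apart. The cells were measured in bulk, and a larger share of cells of a type cannot be told apart from more RNA per cell.

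In the classical pathway, C1q recognises antibody or other ligands on a surface and its attached serine proteases C1r and C1s become active. C1s cuts C4 and C2, whose fragments join into an enzyme that cuts C3, and the alternative pathway reaches the same step with factor B and factor D. C1 inhibitor, made from Serping1, inactivates C1r and C1s, and Cd55 (decay-accelerating factor) takes the C3-cutting enzymes apart on the cell's own surface. Liver makes most of the C3 in blood, while adipocytes, fibroblasts and macrophages also make complement proteins, and factor D was described in fat cells as adipsin.

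Several of these genes have near-identical copies in the mouse, so the probes decide what was measured. The 30 bases at the start of 4 of the 60-base probes are shown, because the values of C1s, C4b and Cd55 depend on which copy a probe can bind. All are written in lower case, 5′ to 3′, as the array files give them.
C1s, probe A_55_P2042612: aaagagtctgcatggaggcagggttgatca
C1s2, probe A_52_P39505: tgtgattattcatcccggctggaaggaaga
C4b, probe A_55_P2078633: cctcactggattagaggctctgctctacag
Cd55, probe A_55_P2101585: ctacatatgaacaggttttgtacttcagac
The C4b probe, at chr17:34865328-34865387 of mm9 on the minus strand, carries accessions of both C4a and C4b, and C4a had no probe of its own, so its value is that of either gene or of both. The C1s probe, at chr6:124480775-124480834 on the minus strand, is annotated to C1s alone. Another probe, A_55_P2150179, is annotated to both C1s and its copy C1s2. The Cd55 probe lies at chr1:132335716-132335775 on the minus strand.

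Of the 8 genes, 5 were 2-fold or more higher than control at day 4, where 11.5% of all genes were. At day 6 it was 6 of 8, against 12.3% of all genes, and at day 8 it was 7 of 8, against 14.1%. None was 2-fold or more lower on any day, against 9.43%, 11.3% and 11.5% of all genes at days 4, 6 and 8. The median log2 change of the 8 genes was 2.26, 3.23 and 3.39 on these days, while the median over all genes lay between -0.04 and -0.01. Errors below are 1 SD of a difference by the scanner software's error model. They cover the spot and not the spread between cultures.

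**Figure D1:**
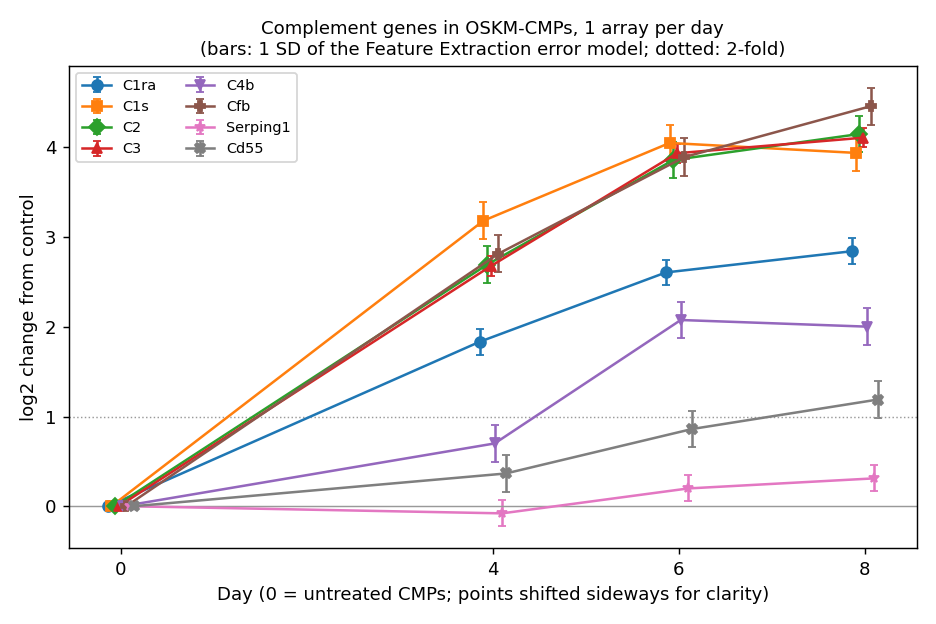
Change of each of the 8 complement genes from the CMP control on the log2 scale (vertical axis) against day (horizontal axis), with 1 array per day and bars of 1 SD from the error model of the scanner software. C1s, C2, C3 and Cfb ran together between 3.94 and 4.46 at day 8, C1ra and C4b lay at 2.84 and 2.00, Cd55 at 1.19, and Serping1 stayed within 0.31 of the control.

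The proteases of the C1 complex were higher on every OSKM array. C1ra, the protease that activates C1s, was read by 2 probes. The signal of its probe A_51_P384318 was 1617 in control and 5798, 9710 and 12426 at days 4, 6 and 8, and that of A_55_P2015363 was 1476 in control and 5204, 9915 and 10998. Both probes gave the same order of arrays, and their changes at day 8 were 2.86 and 2.82, closer together than the error of either (0.20). As a gene, C1ra was 7.17-fold higher at day 8, a log2 change of 2.84 ± 0.14.

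C1s, which cuts C4 and C2, had a signal of 774 in control and 7010, 13363 and 12516 at days 4, 6 and 8. It was the most changed of the 8 genes at day 4, with a log2 change of 3.18 ± 0.20, and stood at 3.94 ± 0.20, or 15.3-fold, at day 8. Days 6 and 8 differed by -0.11, within the error of 0.20. The local background beside its only spot was flagged as an outlier on all 4 arrays, so its value rests on a spot with an unusual surround. The probe shared with C1s2, a spot of its own, read 740 in control and 6901, 12720 and 12911 on the later arrays, a change of 4.05 at day 8.

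The copies of these genes were higher too. C1rb had a signal of 220 in control and 729, 1317 and 1305 afterwards, a log2 change of 2.49 ± 0.20 at day 8. The probe for C1s2 alone was dim, with signals of 6.3, 17.5, 34.9 and 40.3, and was not well above background in the control. C1rl, a C1r-like protease of the same gene cluster, changed by -0.56 ± 0.20.

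C2 and C4 supply the enzyme that the classical pathway builds on a surface. C2 was low in control, with a signal of 157, and reached 1014.5 at day 4, 2380 at day 6 and 2941 at day 8. Each array was above the one before it, although the last step, 0.29 ± 0.20, was the smallest, and the log2 change at day 8 was 4.15 ± 0.21 or 17.7-fold. The probe of C4b read 2193 in control and 3554.5, 9646 and 9267 at days 4, 6 and 8. Its change was 0.70 ± 0.20 at day 4, below 2-fold, and 2.00 ± 0.20 at day 8, or 4.00-fold. C4b thus differed from C2 in timing: 35.0% ± 9.0 of its day 8 change on the log2 scale was present at day 4, against 64.9% ± 4.3 for C2.

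C3 is the protein on which the complement pathways meet, and it had the best measured value, since its probe A_51_P110301 (chr17:57343416-57343475 of mm9, minus strand) was spotted 10 times on each array. Its mean signal was 5386 in control and 34544, 86721 and 99477 at days 4, 6 and 8. The spots ranged from 4833 to 5552 in control, from 33061 to 36420 at day 4, from 81152 to 89390 at day 6 and from 96256 to 101970 on the last array. No spot of an array overlapped with a spot of another array, so the arrays differed by more than the spread of spots within an array. The SD of that spread was between 0.027 and 0.058 on the log2 scale. Spots of an array share its scaling, so this spread does not cover differences between arrays. For C3 as a gene, the step from day 6 to day 8 was only 0.17 ± 0.11. Scaled to the array median, its changes at days 6 and 8 were 3.80 and 3.84.

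The other C3 probe, A_55_P2038525, read 3073, 19518, 48522 and 55020 in the same order, with a change of 4.08 ± 0.20 at day 8 beside 4.13 ± 0.06 for the probe with repeated spots. As a gene C3 was 17.2-fold higher at day 8, a log2 change of 4.11 ± 0.11.

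Cfb encodes factor B, the protease subunit of the C3-cutting enzyme of the alternative pathway. Its signal was 106 in control and 745, 1645 and 2461 at days 4, 6 and 8. Its change at day 8 was 4.46 ± 0.21, or 22.0-fold, the largest of the 8 genes on this scale. With normexp and quantile normalization it was 3.77, below C3 at 4.35 and C1s at 3.94. It was also the gene with the largest step between days 6 and 8, 0.57 ± 0.20.

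**Figure D2:**
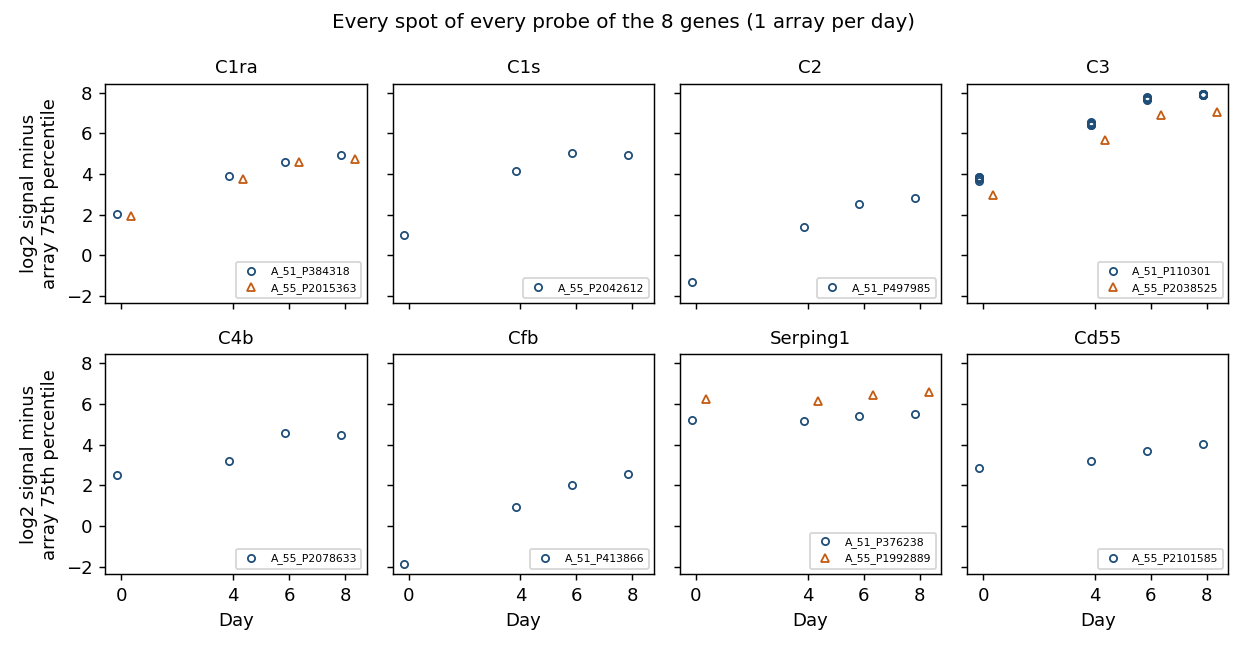
Signal of every spot of the 11 probes, as log2 minus the 75th percentile of the array (vertical axis), against day (horizontal axis, day 0 being the CMP control), with circles and triangles for different probes of a gene. The 10 spots of C3 lie almost on top of each other on each array, and Serping1 is the only gene whose probes stay near their control level.

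Serping1 and Cd55, the regulators, changed less than the 6 components. Serping1, the gene of C1 inhibitor, was already high in the CMP control: its probe A_51_P376238 read 14450 in control and 14077, 17167 and 18698 on days 4, 6 and 8, and A_55_P1992889 read 29768, 27257, 35934 and 39416. Both probes were lowest at day 4 and highest at day 8, but the log2 change of the gene was only -0.08 ± 0.14 at day 4, 0.20 ± 0.14 at day 6 and 0.31 ± 0.14 at day 8. Its sign at day 4 turned under quantile normalization, where the change was 0.0663. It was the only 1 of the 8 genes that never reached a 2-fold difference.

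Cd55, the decay-accelerating factor of the cell surface, had signals of 2805, 3605, 5315 and 6750. The arrays followed the order of the days, with log2 changes of 0.37 ± 0.20, 0.86 ± 0.20 and 1.19 ± 0.20, and only day 8 was past 2-fold, at 2.28-fold. Scaled to the array median, which shifted all genes by -0.27 at day 8, its change there was 0.92, short of 2-fold. Its copy Cd55b had a dim probe, with signals of 5.9, 10.3, 20.8 and 32.1 that were well above background at days 6 and 8 only, and a brighter one with signals of 703, 885, 1321 and 1470, a change of 0.99 ± 0.20 at day 8.

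For C1ra, C1s, C2, C3 and Cfb, between 63.1% and 80.8% of the day 8 change on the log2 scale was present at day 4, and C4b reached its day 8 level by day 6. From day 4 to day 6, 4 of the 8 genes (C2, C3, C4b and Cfb) were 2-fold or more higher, against 2.46% of all genes, with a median step of 0.97. From day 6 to day 8 none of the 8 was, against 2.20% of all genes, and the median step was 0.21. Over day 4 to day 8 it was 5 of 8, C1ra joining the others, against 4.67% of all genes. None was 2-fold or more lower over any of these steps, against 2.28%, 0.714% and 3.81% of all genes in the same order. These steps share arrays and are not independent of each other.

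The share of the day 8 change present at day 4 set apart the early from the late genes. It was 80.8% ± 4.8 for C1s, 65.2% ± 2.3 for C3, 64.5% ± 4.5 for C1ra and 63.1% ± 4.0 for Cfb. It was 30.7% ± 15.2 for Cd55, like C4b a later gene, and Serping1 had too small a change for such a share. C1ra, C2, C3 and Cfb lay within 1 error of each other on this measure.

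**Figure D3:**
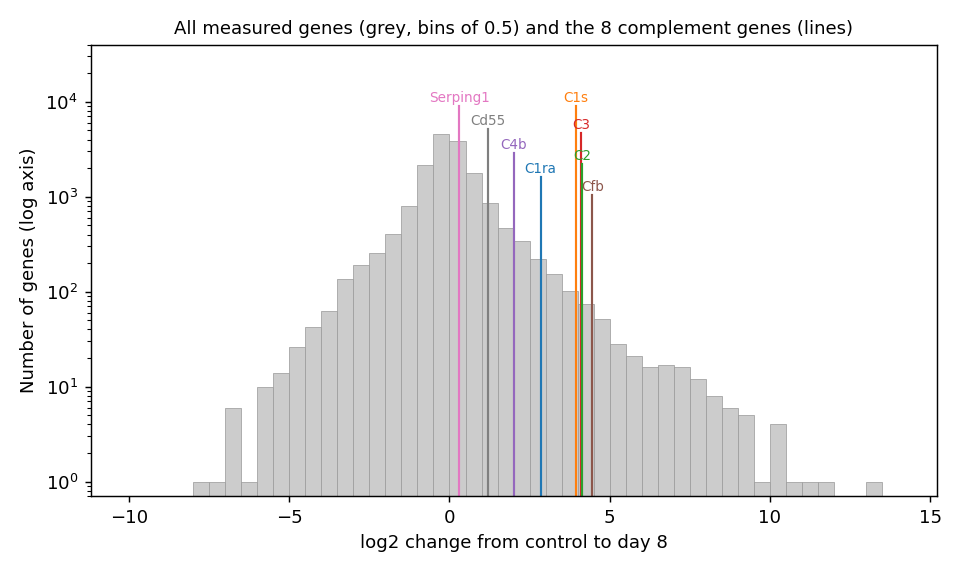
Number of genes (vertical log axis) by their log2 change from control to day 8 (horizontal axis, grey bins), with the 8 complement genes as coloured lines whose heights only separate the names. C1s, C2, C3 and Cfb lie in the right tail, with between 98.3% and 98.8% of all genes below them, and Serping1 lies near the centre with 67.7% below it.

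C2, C3 and Cfb had courses close to each other. Likeness was measured as the Euclidean distance between 2 genes over their 3 log2 changes from control, among 13759 genes with all kept probes well above background on all arrays. C3 was the nearest gene to C2 and C2 the nearest to C3, at a distance of 0.087. Next to both came Aspn, which encodes the matrix protein asporin, at 0.166 from C2 and 0.165 from C3. C2 and C3 were also among the 3 genes nearest to Cfb, at 0.334 and 0.378. Which of the 3 lay closest depended on the scaling: C2 and Cfb were the nearest of the 8 genes to each other with quantile normalization, at 0.301, where C2 and C3 were 0.432 apart. With normexp and quantile normalization, these distances were 0.250 and 1.00.

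The other members had no complement gene among their 3 nearest genes. These were Hopx, Itpka and Necab3 for C1ra, Sned1, Wnk4 and Vnn1 for C1s, Cbs, Lipf and Srpx for C4b, Cxcl16, Nrg1 and Mideas for Serping1, and Rab3c, Map3k12 and Ypel2 for Cd55. After Aspn, Slc22a4 was nearest to C2 and Sncaip nearest to C3. With 3 changes that share 1 control array, many genes lie near any given course.

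Beyond these 8 genes, a list of 55 complement genes ordered by role was followed, of which 44 were measured and 28 had all their probes well above background on all arrays. At day 8, 16 of the 44 were 2-fold or more higher, where 14.1% of all genes were, and 11 lower, where 11.5% of all genes were. Without the 8 genes described above, 9 of 36 were higher and 11 lower, and their median change was -0.07. The 11 lower genes include some that were not well above background at day 8, and the balance of directions depended on dim probes. It was 15 higher and 7 lower with such values set at the lowest signal well above background, 12 higher and 5 lower over probes well above background on all arrays, and 14 higher and 3 lower with normexp and quantile normalization.

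**Figure D4:**
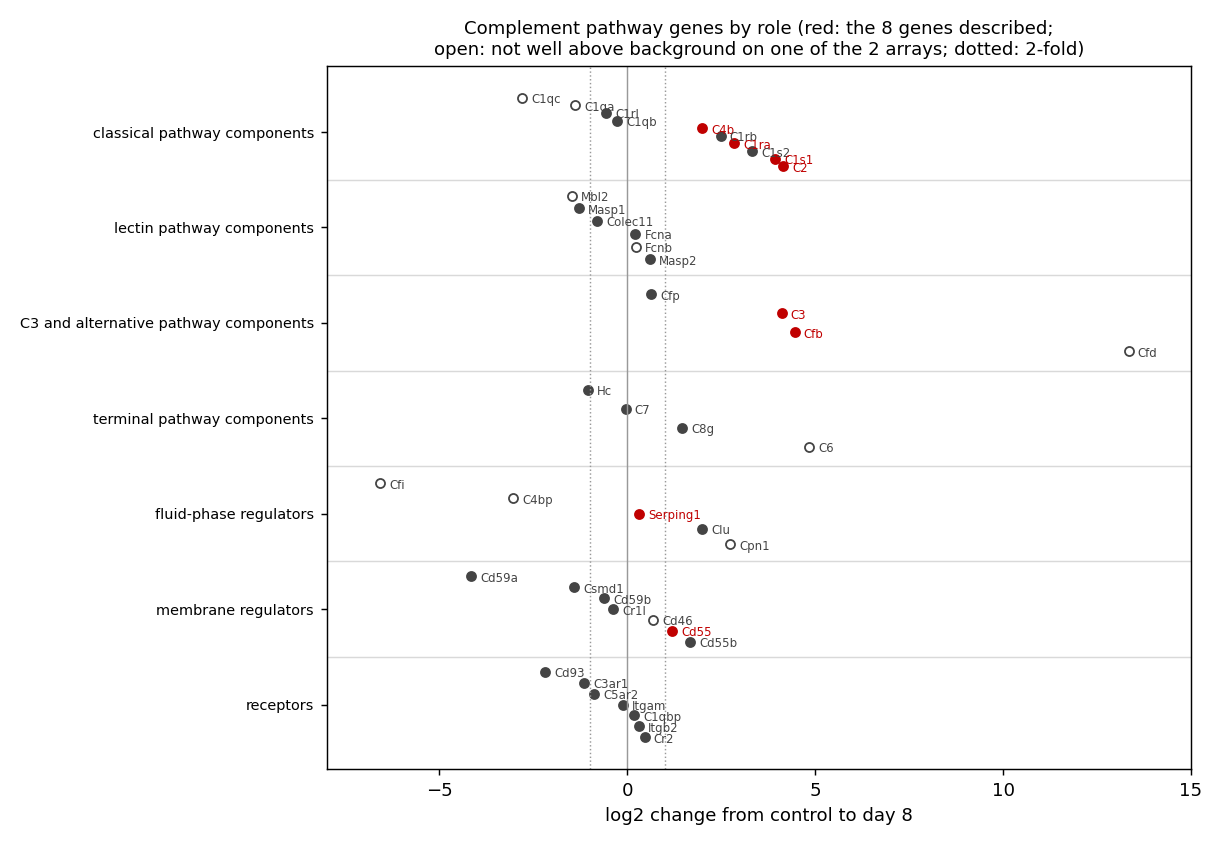
Log2 change from control to day 8 (horizontal axis) of measured complement genes, grouped by role (vertical axis), with the 8 genes described in red and open circles for genes not well above background on either the control or the day 8 array. Genes of the classical pathway and of the C3 and alternative pathway lie mostly to the right, while lectin pathway genes and receptors lie near 0 or to the left. In those 2 pathways, most genes to the right are among the 8 described or are their copies.

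By role, 6 of 10 measured classical pathway genes were 2-fold or more higher at day 8 and 2 lower, against 14.1% and 11.5% of all genes. The higher genes were C1ra, C1s, C2 and C4b, described above, and the copies C1rb and C1s2. The brighter probe of C1s2 is the one shared with C1s. No classical pathway gene apart from the genes described and their copies was higher, so this count mostly repeats the chosen genes. The 2 lower genes were C1qa and C1qc, chains of the recognition protein C1q, with signals of 15.3 and 16.2 in control and not well above background on any OSKM array. Their differences are therefore bounds, at least 1.56-fold and at least 1.65-fold lower at day 8. The remaining chain, C1qb, stayed dim and changed by -0.26 ± 0.24. No chain of C1q was thus higher beside its proteases.

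Of 4 genes of C3 and the alternative pathway, 3 were higher and none lower, against 14.1% and 11.5% of all genes. C3 and Cfb were counted already among the genes described above, so only Cfd and Cfp are added here. The third higher gene was Cfd, factor D or adipsin, the protease that cuts factor B. Its signal was 3.6 in control, not well above background, then 39.5 at day 4, 9096 at day 6 and 39475 at day 8, which makes it at least 3572-fold higher at day 8. Its main step came between days 4 and 6, later than that of Cfb. Cfp, properdin, which stabilises the alternative pathway enzyme, changed by 0.64 ± 0.20.

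Of the 6 measured lectin pathway genes, none was called higher at day 8 and 2, Masp1 and Mbl2, were called lower, against 14.1% and 11.5% of all genes. Masp1, a protease of the mannose-binding lectin complexes, changed by -1.28 ± 0.23 at day 8 after -2.15 at day 4. Colec11, a collectin, changed by -2.58 at day 4 and by -0.80 ± 0.20 at day 8. Mbl2 and Fcnb were near background throughout, with bounds of at least 1.18-fold lower and at least 1.11-fold higher.

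Of the terminal components, which form the pore, C6 had signals of 11.2, 12.5, 160.5 and 338, was not well above background in control, and was at least 28.6-fold higher at day 8. C8g changed by 1.47 ± 0.15 and Hc, which encodes C5, by -1.04 ± 0.24, the latter at signals of 55.3 in control and 28.5 at day 8. C7 differed little, by -0.05 ± 0.31.

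Regulators went both ways. Among those in solution, Clu (clusterin) had signals of 1840, 9074, 9276 and 7739, a change of 1.99 ± 0.20 at day 8. Cfi, the protease that degrades C3b and C4b, had a signal of 411 in control and was not well above background on any OSKM array, at least 41.8-fold lower at day 8. Cpn1 was at least 1.63-fold higher and C4bp at least 1.85-fold lower, both at dim signals.

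Among regulators of the membrane, Cd59a, which blocks the terminal pore, had signals of 1793, 150, 121 and 106.6. Every OSKM array lay far below control, and its log2 change at day 8 was -4.15 ± 0.21, or 17.8-fold lower. Its sign was thus opposite to that of Cd55. Its copy Cd59b was dim and changed by -0.61 ± 0.29. Csmd1 changed by -1.41 ± 0.23, Cr1l (Crry, a rodent regulator of C3) by -0.38 ± 0.20, and Cd46 had signals near background on all arrays.

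Of the 7 measured receptors none was 2-fold or more higher and 2 were lower, against 14.1% and 11.5% of all genes. Cd93 changed by -2.18 ± 0.21 and C3ar1, the receptor of the C3a fragment, by -1.15 ± 0.31, from a signal of 35.6 to one of 16.9.

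Cytokines and interferons are known to raise complement genes in many cells, and a list of 34 genes of that signalling was read beside them. Of 31 measured, 11 were 2-fold or more higher at day 8 and 8 lower, against 14.1% and 11.5% of all genes, with a median of -0.04. The higher genes include Tnf and Osm, which were dim and not well above background in control. Their bounds at day 8 were at least 1.42-fold and at least 2.49-fold higher. Ifnb1, interferon beta, was not well above background in control and had signals of 577, 818 and 1255 afterwards, at least 114-fold higher at day 8. The interferon-responsive factors Irf7 and Stat2 changed by 2.67 ± 0.20 and 2.20 ± 0.20, while Irf9 changed by 0.01 and the interferon receptor genes Ifnar1, Ifnar2, Ifngr1 and Ifngr2 by -0.09, -0.37, -0.24 and 0.06. Il6 changed by -2.55 ± 0.14, the interleukin 1 receptor gene Il1r1 by -2.45 ± 0.20 and the feedback inhibitor Socs3 by -2.17 ± 0.20, while Lifr changed by 1.13 and Il6ra by 0.70. Genes of interferon and of interleukin signalling thus lay on both sides. The C/EBP factors split, Cebpa at 3.15 ± 0.20 and Cebpd at -2.94 ± 0.20. The part of these genes in the complement changes was not tested.

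Markers of cells that make complement were read in the same arrays. All 8 mesenchymal markers, Ly6a (Sca-1) among them, were well above background in control and at day 8. Ly6a was 2-fold or more higher at day 8, with a change of 2.69, and Thy1, Itgb1 and Eng were lower, at -1.78, -1.35 and -1.19. Of 6 adipocyte markers, 2 were well above background in control, 5 at day 4 and 6 at day 8. With dim values as bounds, 4 of the 6 were at least 2-fold higher at day 4 and 5 at day 8, and the bound for Lep at day 8 was below 2-fold. Their summed level, as a multiple of the 75th percentile signal, was 4.45 in control and 44.1, 133 and 250.0 at days 4, 6 and 8. Pparg and Fabp4 were 12.5-fold and 7.77-fold higher at day 4, when C1s, C2, C3 and Cfb were between 6.4-fold and 9.08-fold higher. The other complement genes described changed less by then. C1ra was 3.56-fold, C4b 1.62-fold and Cd55 1.29-fold higher, and Serping1 was 1.06-fold lower. Adipoq had signals of 7.4, 137, 9680 and 23930 and was at least 13.1-fold higher at day 4.

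Of 7 measured macrophage markers, 1 was higher (Cd68) and 2 lower (Tyrobp and Lyz2) at day 8, where 14.1% of all genes were higher and 11.5% lower. Their summed level, as a multiple of the 75th percentile signal, was 1.92 in control and 1.36 at day 8. Tyrobp, with a signal of 15.5 in control, was not well above background on any OSKM array. Its difference at day 8 is therefore a bound, at least 1.57-fold lower, which does not reach 2-fold. Of 5 endothelial markers none was higher and 3 were lower, with Cdh5 and Emcn not well above background at day 8. Of 5 hepatocyte markers, Alb, Apoa1 and Ttr were not well above background on any array, and the other 2 changed by less than 2-fold. Of 6 cardiomyocyte markers 4 were measured, with 2 called higher and 1 lower. The higher ones, Myh6 and Myl7, were dim and not well above background in control. As bounds they were at least 1.75-fold and at least 2.70-fold higher at day 8. The lower one, Tnnt2, had a signal of 4604 in control and 1602 at day 8. The part of the adipocyte share in the complement changes was not tested.

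Many complement genes lie side by side in the genome, which allows their neighbours to be compared. C4b, Cfb and C2 belong to the class III region of the histocompatibility complex on chromosome 17, and 5 measured genes stand between C4b and Cfb in the RefSeq order. None of these was 2-fold changed at day 8: Cyp21a1 changed by 0.29, Stk19 by -0.72, Dxo by -0.19, Skiv2l by 0.10 and Nelfe by -0.55. On the other side of C4b, Tnxb, a tenascin of the matrix, changed by 2.96.

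On chromosome 6 the C1r and C1s genes stand together, and C1rl beside them was lower at -0.56 while Clstn3, the next gene, changed by 2.73. Around all of the 8 genes, 30 measured neighbours outside the complement list had a median change of 0.09, with 6 higher and 3 lower. Among all genes 14.1% were higher and 11.5% lower. Cd70, Ypel4 and Thsd7b of the higher neighbours and Cxcr4 of the lower were not well above background on every array.

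**Figure D5:**
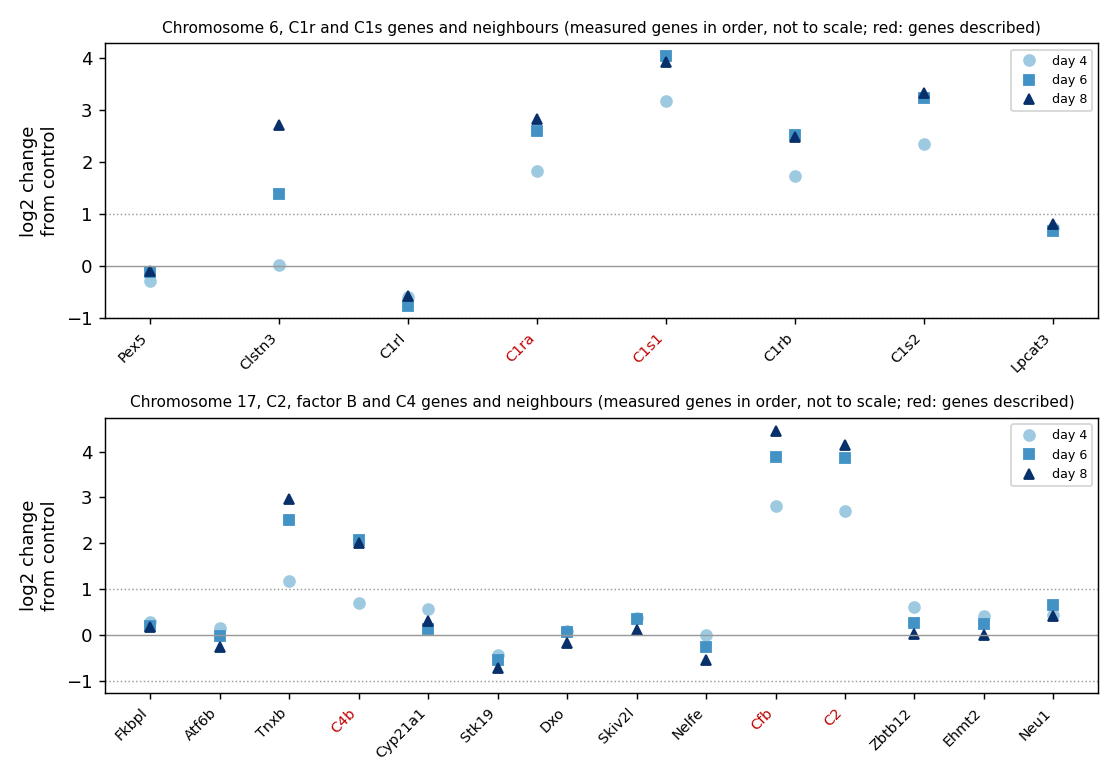
Log2 change from control (vertical axis) at days 4, 6 and 8 of the measured genes around the C1r and C1s genes (top) and around C4b, Cfb and C2 (bottom), in their order along the chromosome and not to scale. The complement genes stand above the dotted 2-fold line at day 8, apart from C1rl, while the 5 genes between C4b and Cfb stay within it.

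Promoters of 4 of the 8 genes (C1ra, C1s, C3 and Cd55) could be read from the RefSeq table of GRCm38.p6. The 300 bases from 250 before to 50 after each start were searched on both strands for 7 motifs: the interferon-stimulated response element core, the gamma-activated site TTCNNNGAA, the kappaB site, the C/EBP site TTGCNNAA, the Myc E-box CACGTG, the Klf4 site GGGTGNGGC and the TATA box TATAAA. The 250 bases before the start of C3 are shown, since C3 had the best measured change, with the C/EBP match in capitals, at chr17:57228137-57228386 on the minus strand.
C3 promoter: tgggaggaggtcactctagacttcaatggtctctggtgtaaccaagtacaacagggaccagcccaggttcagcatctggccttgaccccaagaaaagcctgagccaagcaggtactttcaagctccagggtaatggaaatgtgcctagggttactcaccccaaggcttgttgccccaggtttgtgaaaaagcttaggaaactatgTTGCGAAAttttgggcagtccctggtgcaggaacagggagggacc
The match lies at -45 to -38 from the start, and 10.8% of all 32851 promoters hold this motif. C1ra and C1s also had a C/EBP match, C1ra after its start and C1s at -242 to -235 of its upstream start. C1ra had a gamma-activated site after its start, a motif in 8.30% of promoters, and C3 had a TATA box after its start, in 13.6% of promoters.

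The Cd55 promoter is shown because Klf4 was among the transduced factors, with its match to the Klf4 motif in capitals, at chr1:130462745-130462994 on the minus strand.
Cd55 promoter: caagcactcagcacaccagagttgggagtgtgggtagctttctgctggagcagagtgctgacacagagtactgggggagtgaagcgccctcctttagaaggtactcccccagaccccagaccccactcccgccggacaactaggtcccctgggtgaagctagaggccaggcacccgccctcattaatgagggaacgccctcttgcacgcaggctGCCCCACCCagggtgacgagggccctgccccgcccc
This match, read on the opposite strand, lies at -36 to -28, and 5.13% of all promoters hold the motif. No match to the interferon-stimulated element, the kappaB site or the Myc E-box was found in the 5 promoter windows of these 4 genes. These motifs are in 3.44%, 1.63% and 7.15% of all promoters.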

How the data were processed

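The authors' Agilent Feature Extraction files (version 10.7.3.1 in the file headers, 9.5.3 in the submitters' processing notes) give the deposited processed Cy3 intensity of 62976 spots per array, after background subtraction, with an error and flags. 250 ng of RNA was labelled per sample, per the labels. The authors' normalized table holds log2 values with the 75th percentile of each array at about 0, as found by setting it against the intensities, and served as an alternative. Its scale and centring were thus settled.

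Control spots (3671) and outlier spots (87 to 106 per array) were left out. Spots of the same probe were averaged as log2 intensity, giving 55681 probes, less the 75th percentile of their array (intensity 388 to 411). Between 56.6% and 59.6% of probes were well above background and none was saturated. A probe was kept if it passed this on any array (35543 probes), and probes of a gene were averaged. Names came from the RefSeq table of GRCm38.p6 (26762 probes by accession, 3819 by symbol, 639 by synonym, 24461 unmatched). Probe positions are those of the files, on mm9. The median SD between repeated spots was 0.063 to 0.066 (log2), and the number of arrays limits the precision. Each array was set against the others with no test. A gene counted as changed at 2-fold or more, if well above background on the higher array. A gene not well above background on an array is given as a bound against the lowest signal well above background there.

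The genes named are the members and their near-identical copies, the listed complement genes with 2-fold changes or bounds at day 8, up to 8 cytokine genes by size, and the 3 genes nearest to each member. Some genes that this rule names are not reported here. Members and lists were chosen with earlier results of these data known. Alternatives were normexp with quantile normalization (limma 3.58.1 in R 4.3.3), quantile normalization, other filters, thresholds, scale and probe choice. In a simulation over 15383 genes, the control array's signals were used on both sides, with known changes and spot noise added. There 100.0% of 101 genes changed 4-fold or more were recovered at the 2-fold threshold. This checks the computation and not the calls at day 8, since it holds no spread between cultures. Python 3.11.15, numpy 2.4.6, pandas 2.3.3 and matplotlib 3.10.9 were used.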

Additional observations from a re-analysis of the deposited data

How the results depend on the processing

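No paired analysis was possible because there was 1 array for each condition. Of 417 values recomputed under 11 alternatives for 45 results, 375 stayed within their error (counts within 1.5 times), 41 moved and 1 moved past its error to the other sign. The 375 include 45 with the array median as scale, taken relative to the shift of all genes, which returns the main values by construction. Another 45 came from the authors' normalized values, which carry the same scaling of the same intensities. Neither set of 45 is a check on the scaling. In all, 12 values of 5 results had the other sign, and the rest of these lay near 0: Serping1 at day 4 and the medians of the cytokine list. The counts of the 8 genes stayed within 1.5 times under every alternative that gave one. With normexp and quantile normalization, C2 changed by 2.29, 3.42 and 3.74 over days 4, 6 and 8, Cfb by 2.16, 3.21 and 3.77, Serping1 by 0.0958, 0.45 and 0.63, and C3 by 4.09 at day 6 and 4.35 at day 8. The median of the 8 genes was then 2.01 at day 4 and 2.93 at day 6, the complement list median 0.0159, 0.0091 and 0.0898, and its lower genes 5, 4 and 3. With quantile normalization alone, Serping1 changed by 0.0663, 0.44 and 0.61, C3 by 4.12 at day 6 and 4.38 at day 8, the median of the 8 genes was 3.52 at day 8, and the list median 0.0394 at day 4 and 0.14 at day 8. Without a filter the list median was 0.0289, 0.0617 and -0.0491, a turn in sign at day 8. With probes well above background on all arrays, its lower genes were 4, 5 and 5 and its median 0.32 at day 6, and the cytokine median was -0.20 at day 6 and -0.16 at day 8. With dim values at the floor there were 7, 7 and 7 lower genes, and with a 3-fold threshold 7 at day 4 and 5 at day 8. Leaving out spots with a flagged local background, an alternative chosen after seeing the data, left C1s without a value and the list median at 0.0525 at day 6. Scaling to the array median shifted all genes by -0.14, -0.13 and -0.27, and values relative to that shift were those of the report. With the shift left in, Cd55 at day 8 was 0.92, below 2-fold, and Serping1 at day 8 was 0.04. Values with the shift left in are not among the 417. The cause of these moves was not tested.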
